A study of Mus musculus with 12 samples.

Results

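The miR-25 and miR-92 seed family was examined in small RNA libraries of mitochondria isolated from mouse heart. Its members were chosen by name: mmu-miR-92a-3p, mmu-miR-25-3p, mmu-miR-92b-3p, mmu-miR-363-3p and mmu-miR-32-5p, written below without the species prefix. All 5 were found among the 932 rows of the deposited table. The 6 db/db libraries came from mice with a defective leptin receptor gene, a model of obesity with type-2-like diabetes, and the 6 WT libraries from wild-type mice. All 12 libraries were mitochondrial fractions of heart. The sources used here do not give the age, sex or strain background of the mice, or how the mitochondria were isolated. Samples are numbered 1 to 6 within a genotype. No label states whether different animals gave these samples, so the p-values speak for the variation among samples, part of which may be technical.

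miRNAs guide an Argonaute protein to messenger RNAs that pair with the seed, bases 2 to 8 of the guide, and so lower the output of those messages. Members of a seed family are therefore expected to share many targets, while the bases after the seed differ between them. In mouse hearts miR-25 has been described as a repressor of the calcium pump gene Atp2a2, and in endothelial cells miR-92a as a repressor of the integrin gene Itga5 and of vessel growth. The miR-17-92 cluster, which gives rise to miR-92a, is known for its part in cell proliferation and in heart growth.

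The mature sequences, printed here to show what the members share, were taken from RefSeq (GRCm38.p6), in which all 5 names matched. They are written 5′ to 3′ with the seed in capitals.
miR-92a-3p: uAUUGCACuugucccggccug
miR-25-3p: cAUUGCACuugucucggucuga
miR-92b-3p: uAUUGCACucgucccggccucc
miR-363-3p: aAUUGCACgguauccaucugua
miR-32-5p: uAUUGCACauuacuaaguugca
The seed was AUUGCAC in every member. Of 1679 mature mouse miRNA names in that RefSeq table, 6 (0.357%) had this seed. The sixth, miR-367-3p, was not analysed here. Compared over the first 21 bases, counted from 1 at the 5′ end with the miR-92a-3p base given first, miR-92b-3p differed from miR-92a-3p at U10C and G21C. miR-25-3p differed at U1C, C14U and C18U. miR-363-3p and miR-32-5p differed from it at 11 and 10 positions, all outside the seed. Measured from miR-92a-3p, miR-92b-3p and miR-25-3p were thus close and miR-363-3p and miR-32-5p more distant. miR-363-3p and miR-32-5p matched each other at 13 of 22 bases. The sources used here do not say how many mismatches were allowed when reads were assigned, so reads shared between miR-92a-3p and miR-92b-3p could have been counted under either.

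miR-92a-3p is made from a pair of hairpins on different chromosomes, which are printed with the guide arm in capitals because they show why its reads cannot be assigned to a locus.
Mir92-1: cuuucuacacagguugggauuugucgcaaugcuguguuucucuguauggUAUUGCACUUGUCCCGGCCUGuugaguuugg
Mir92-2: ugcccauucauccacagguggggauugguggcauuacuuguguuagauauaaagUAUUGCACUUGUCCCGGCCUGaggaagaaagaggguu
Mir92-1 lies at chr14:115044427-115044506 on the plus strand (GRCm38.p6), in an exon of the noncoding RNA Mir17hg, as the last hairpin of the miR-17-92 cluster. Mir92-2 lies at chrX:52741838-52741928 on the minus strand, in the miR-106a-363 cluster that also holds Mir363. The capitals are identical in both, and the single deposited miR-92a-3p value sums them. Mir25 lies at chr5:138165321-138165404 within Mcm7, a replication helicase gene, on the same strand, beside Mir93 and Mir106b. Some annotated Mcm7 transcripts cover Mir25 as exon. Mir32 lies in an intron of Tmem245 on chromosome 4, and Mir92b on chromosome 3 inside no other gene of GENCODE M21.

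Values are in RPM, reads scaled to a total of 1000000 for the listed miRNAs, so each is a share of its library and not an amount per cell. Recovered depth ranged from 412749 to 1382046 reads, and 1 read was worth 0.724 to 2.42 RPM. Mean log2 depth differed by 0.03 between db/db and WT libraries (exact permutation test, two-sided, p = 0.894). The muscle miRNAs miR-1a-3p, miR-133a-3p and 4 others were fixed as markers. Together they summed to 341273 to 443346 RPM in db/db and 371999.7 to 424702 RPM in WT libraries, so every library was rich in muscle miRNAs. Most of that sum was miR-133a-3p, which averaged 341153 RPM in db/db and 323867 RPM in WT libraries. Whether these reads came from heart or from other muscle was not tested. The liver marker miR-122-5p was at most 22.0 RPM in db/db and 27.5 RPM in WT libraries. The lowest depths were 412749 reads in db/db library 6 and 551591 reads in WT library 4.

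The family was carried by miR-92a-3p in both genotypes. Its members together summed to 6264 ± 1096 RPM in db/db and 4714 ± 1054 RPM in WT libraries (SD, n = 6 each), or 0.626% ± 0.110 and 0.471% ± 0.105 of reads in db/db and WT. miR-92a-3p made up 89.6% ± 2.58 of that sum in db/db and 84.4% ± 4.14 in WT libraries. miR-25-3p made up 10.2% ± 2.64 in db/db and 15.4% ± 4.19 in WT libraries. The other 3 members together reached at most 24.9 RPM in a db/db library and 25.9 RPM in a WT library.

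**Figure D1:**
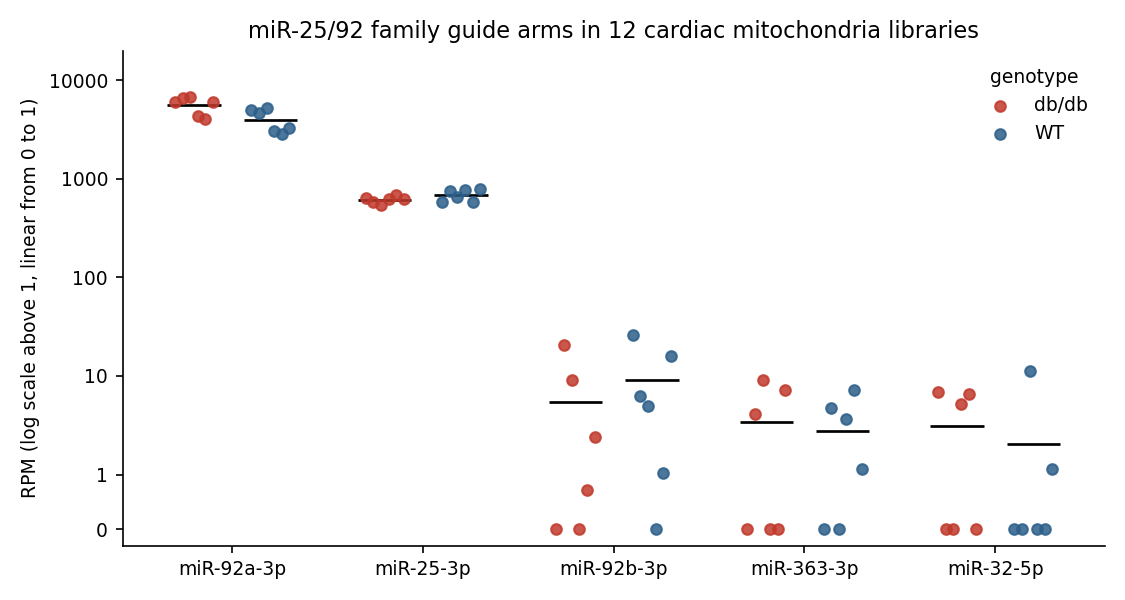
Level of each family member in RPM (vertical axis, logarithmic above 1 and linear from 0 to 1) for 6 db/db and 6 WT libraries, 1 point per library, with group means as lines. miR-92a-3p lies above miR-25-3p in all 12 libraries, and the other 3 members lie near 0 to 25.9 RPM.

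The order of the levels was miR-92a-3p, miR-25-3p, miR-92b-3p, miR-363-3p and miR-32-5p by mean over the 12 libraries (4822, 654, 7.26, 3.10 and 2.58 RPM). miR-92a-3p exceeded miR-25-3p in 12 of 12 libraries, and miR-25-3p exceeded miR-92b-3p in 12 of 12. The last 3 did not differ beyond their spread: miR-92b-3p was above miR-363-3p in 6 of 12 libraries with 3 ties, and miR-363-3p above miR-32-5p in 6 of 12 with 2 ties. Among all 932 rows miR-92a-3p ranked 29 to 45 in single libraries. By mean level it stood between miR-99b-5p (5089 RPM) and let-7f-5p (4797 RPM), within its own spread of both. miR-25-3p ranked 66 to 83, between miR-128-3p (658 RPM) and miR-181b-5p (638 RPM). miR-92b-3p stood between miR-183-5p (7.28 RPM) and miR-467e-5p (7.20 RPM), with differences far below 1 read. miR-363-3p and miR-32-5p followed miR-495-3p (3.13 RPM) and miR-201-5p (2.61 RPM).

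The comparison of db/db with WT asks how the miRNAs of these cardiac mitochondria differ in diabetic mice. miR-92a-3p, the member held by both clusters, had 6012, 6556, 6721, 4375, 4083 and 6067 RPM in db/db libraries 1 to 6, against 4973, 4666, 5253, 3031, 2864 and 3264 RPM in WT libraries 1 to 6. Of the db/db libraries 4 lay above every WT library, all 6 lay above the WT median, and libraries 4 and 5 overlapped the WT range. It averaged 5635 ± 1127 RPM in db/db and 4008 ± 1070 RPM in WT libraries (SD, n = 6 each), 1.41-fold on the means. The log2 fold change on the log2(RPM + 1) scale was 0.51 ± 0.15 (SE; 95% CI 0.20 to 0.82), and it did not pass over all rows (limma adjusted p = 0.109, unadjusted p = 0.00151). Fitted without limma's abundance trend, the same fold change had a wider SE of 0.25 (limma adjusted p = 0.691). In the main fit miR-92a-3p ranked 8 of 646 rows tested by unadjusted p. On that value alone an exact permutation test of the genotype labels gave p = 0.0346 (two-sided, not adjusted).

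Counting fits that left out libraries, miR-92a-3p met the threshold under 5 alternative settings and missed it under 21. With no filter on mean level the limma adjusted p was 0.396, and with median-of-ratios scaling it was 0.0620. From recovered reads edgeR gave 0.54 (adjusted p = 0.0656) and DESeq2 0.55 (adjusted p = 0.0242). The DESeq2 adjustment ran over 145 rows, and 501 had no adjusted p. With the sample number as a replicate block the value was 0.51 (limma adjusted p = 0.00419), beside a background of 1.39% of rows called. No label names the numbers as pairs, so that fit was kept as an alternative. Leaving out db/db library 5, WT library 1 or WT library 3 gave limma adjusted p of 0.0272, 0.0402 and 0.0469, beside backgrounds of 1.09%, 0.938% and 0.939% of rows called in those fits. Leaving out any other library gave up to 0.371. Without db/db library 6 and WT library 4, the shallowest, the log2 fold change was 0.41 (limma adjusted p = 0.397). In db/db, libraries 1 to 3 ranged from 6012 to 6721 RPM and libraries 4 to 6 from 4083 to 6067 RPM. In WT, libraries 1 to 3 ranged from 4666 to 5253 RPM and libraries 4 to 6 from 2864 to 3264 RPM. The labels name no batch, and whether this spread came from one was not tested.

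miR-25-3p, from the Mcm7 locus, had 634, 580, 548, 624, 683 and 629.9 RPM in db/db libraries 1 to 6, against 589, 747, 660.3, 772, 582 and 798 RPM in WT libraries 1 to 6. The WT median exceeded all 6 db/db values, and 4 of these lay inside the WT range. It averaged 617 ± 46.9 RPM in db/db and 691 ± 94.4 RPM in WT (SD, n = 6 each), with the wider spread in WT. Its log2 fold change was -0.16 ± 0.18 (SE; 95% CI -0.51 to 0.20; limma adjusted p = 0.724). An exact permutation test gave p = 0.123 (two-sided).

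**Figure D2:**
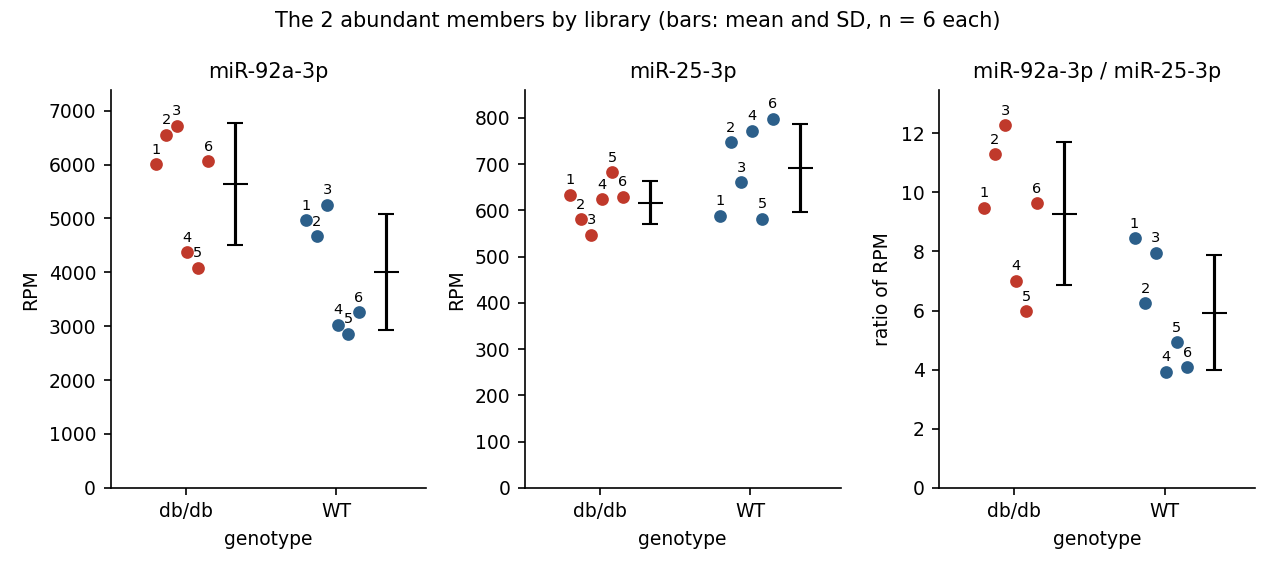
Level of miR-92a-3p and of miR-25-3p in RPM and the ratio of these levels, 1 point per library marked with its sample number, with mean and SD for 6 db/db and 6 WT libraries. Of the miR-92a-3p values 4 in db/db lie above every WT value, miR-25-3p overlaps, and the ratio runs from 5.98 to 12.3 in db/db and from 3.92 to 8.45 in WT libraries.

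The balance between the abundant members is a ratio within each library and is not moved by scaling. miR-92a-3p stood at 9.48, 11.3, 12.3, 7.01, 5.98 and 9.63 times the level of miR-25-3p in db/db libraries 1 to 6, against 8.45, 6.25, 7.95, 3.92, 4.92 and 4.09 times in WT libraries 1 to 6. The groups overlapped between 5.98 and 8.45. The mean ratio was 9.28 ± 2.42 in db/db and 5.93 ± 1.95 in WT libraries (SD, n = 6 each). As a log2 ratio it was 0.67 higher in db/db, given as a description with no test.

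The other members rested on few reads. A library at 0 allows up to 3 reads, or 2.17 to 7.27 RPM, for counting error only. miR-92b-3p, whose relative in Drosophila acts in muscle with Mef2, had 0, 20.7, 9.06, 0, 0.724 and 2.42 RPM in db/db libraries 1 to 6, against 25.9, 6.32, 4.99, 0, 1.04 and 15.9 RPM in WT libraries 1 to 6. It totalled 24 reads in db/db and 40 reads in WT libraries, and its groups overlapped over most of their range. miR-363-3p, of the X-linked cluster, was above 0 in 3 db/db and 4 WT libraries, with 13 reads in each genotype. miR-32-5p was above 0 in 3 db/db and 2 WT libraries, with 18 reads in db/db and 10 reads in WT. Their log2 fold changes had 95% CI of -2.90 to 1.24 for miR-92b-3p, -1.99 to 1.94 for miR-363-3p and -1.21 to 2.48 for miR-32-5p. Differences within those bounds were compatible with these few reads. The log2 fold change of miR-363-3p was -0.02 and changed sign between settings.

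Of the 5 members, all of which passed the filter of a mean of at least 1 RPM, limma called 0, with 1 (miR-92a-3p) at an unadjusted p under 0.05. The background was 1 of 646 rows called (0.155%), and 58 rows (8.98%) at an unadjusted p under 0.05. edgeR called 0 members (background 0.464%), with 5 given an adjusted p. DESeq2 gave an adjusted p for 2 members, miR-92a-3p and miR-25-3p, and called miR-92a-3p. Its background over the 145 rows with an adjusted p was 8.97% called in either direction and 6.9% called higher in db/db. The median log2 fold change of the members was -0.02, and that of all rows -0.04.

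Passenger arms, the strands of a hairpin that are mostly discarded, can tell the hairpins of miR-92a apart. miR-92a-1-5p comes from Mir92-1 alone, while miR-92a-2-5p was not analysed here. miR-92a-1-5p had 15.1, 5.53, 6.47, 15.5, 0 and 7.27 RPM in db/db libraries 1 to 6, against 0, 12.6, 4.99, 10.9, 2.08 and 0 RPM in WT libraries 1 to 6. It was therefore present in 5 db/db and 4 WT libraries, and its log2 fold change of 0.86 ± 1.00 did not pass (SE; limma adjusted p = 0.726). In the 9 libraries with such reads, miR-92a-3p had 279 to 1378.5 reads for each read of miR-92a-1-5p. miR-25-5p totalled 9 reads in db/db and 17 in WT libraries, miR-32-3p 2 and 8, and miR-92b-5p 0 and 9.

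The cluster partners were listed by locus, and 0 of 11 tested passed by limma in either direction (background 0.155% of 646 rows). Of the miR-17-92 partners 3 of 7 had values above 0, and their median was -0.03 (log2 fold change). The guide miR-17-5p, which has the seed of its own family, averaged 122 ± 36.0 RPM in db/db and 97.8 ± 12.5 RPM in WT libraries (SD, n = 6 each). Its log2 fold change was 0.27 ± 0.29, with SE, at a limma adjusted p of 0.717. miR-20a-5p, of the same seed family, stood at 0.24 ± 0.25 and miR-19b-3p, made like miR-92a-3p from hairpins in both clusters, at -0.36 ± 0.40 (log2 fold change, SE). At the Mcm7 locus 3 of 4 partners had positive values, with a median of 0.14. miR-93-5p stood at 0.06 ± 0.17, with 793.5 RPM in db/db and 764 RPM in WT libraries, and miR-106b-5p at -0.28 ± 0.25. Of the X-linked partners miR-20b-5p alone was listed, below the filter at 7 reads in all. The 14 tested partners and passenger arms, 7 positive and 7 negative, had a median of 0.02, with 0 at an unadjusted p under 0.05 by limma and 0 called by edgeR. The backgrounds were 8.98% of rows at an unadjusted p under 0.05 by limma and 0.464% called by edgeR. DESeq2 gave an adjusted p for 4 of the 14 and called 0 of these (background 8.97%). At such shares 0 calls among so few rows do not show a lack of change.

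**Figure D3:**
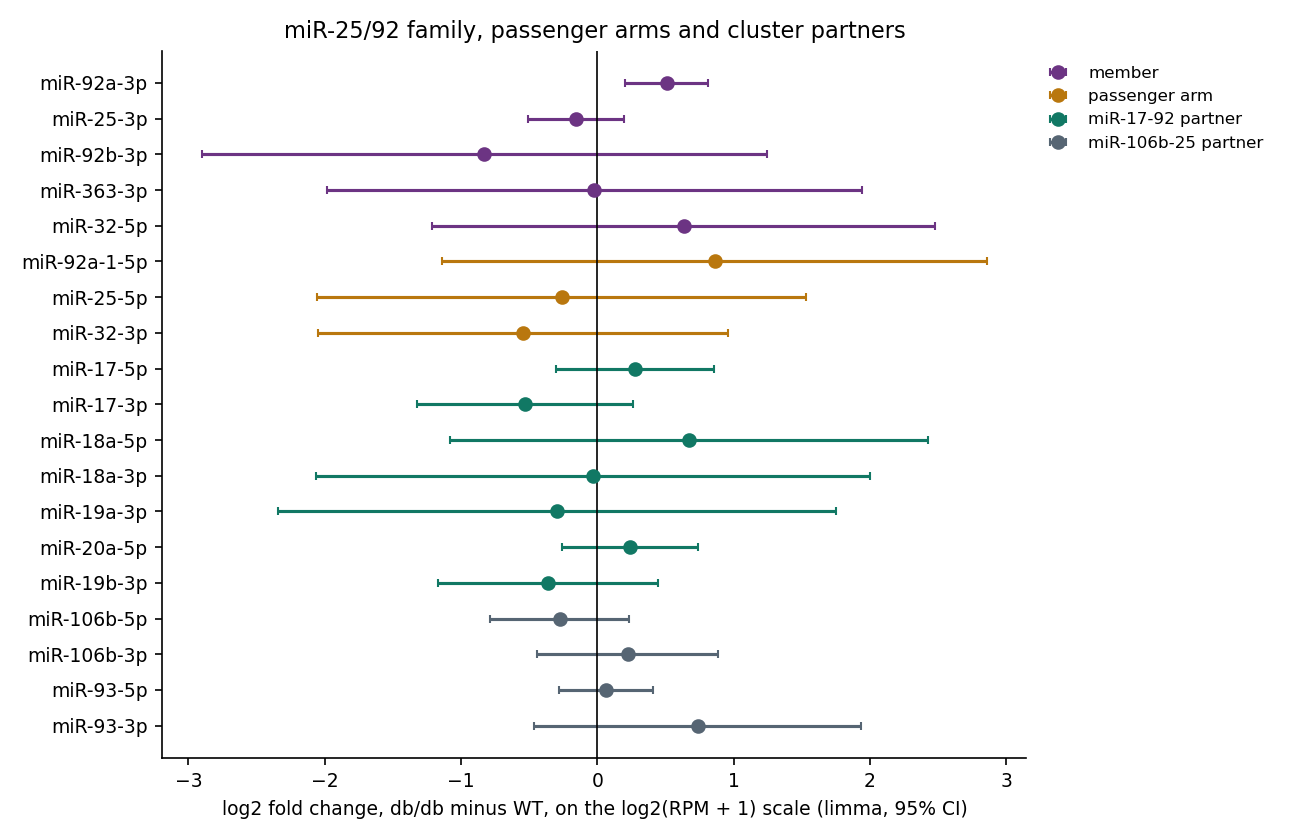
limma log2 fold change, db/db minus WT on the log2(RPM + 1) scale, with 95% CI as bars, for the 5 members, 3 passenger arms and 11 cluster partners tested. The interval of miR-92a-3p (0.20 to 0.82) lies above 0, and the intervals of the other 18 include 0.

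Across the 12 libraries the levels of miR-92a-3p and its relatives were compared by 9 correlations, with p-values from 100000 permutations adjusted over the 9. miR-92a-3p and miR-25-3p had a Pearson r of -0.55 (permutation p = 0.0654, adjusted 0.147) and a Spearman rho of -0.53 (permutation p = 0.0787, adjusted 0.177), with r = -0.77 within db/db and -0.21 within WT libraries. Without the 2 libraries farthest from the median of miR-92a-3p, r was -0.80. The r of these members was below 0 in each genotype, and neither adjusted p passed. With its cluster partner miR-17-5p, miR-92a-3p had r = 0.62 (permutation p = 0.0306, adjusted 0.0918) and rho = 0.71 (permutation p = 0.0119, adjusted 0.0536), with 0.88 within db/db, 0.04 within WT and 0.58 without the 2 farthest libraries. For miR-20a-5p and miR-19b-3p r was 0.32 and -0.33 (permutation p = 0.305 and 0.303, adjusted 0.458 each), and rho was 0.25 and -0.30 (permutation p = 0.432 and 0.341, adjusted 0.628 and 0.614). miR-25-3p had r = 0.15 with miR-93-5p and 0.29 with miR-106b-5p (permutation p = 0.655 and 0.365, adjusted 0.737 and 0.469), with rho of 0.04 and 0.22 (permutation p = 0.905 and 0.4997, adjusted 0.905 and 0.628). Without the 2 farthest libraries r was 0.50 and -0.45 for miR-20a-5p and miR-19b-3p, and 0.21 and 0.27 for miR-93-5p and miR-106b-5p.

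Red cells and endothelium carry miR-92a as well as heart muscle, so their markers were set beside it. The 5 erythroid markers (miR-451a, both miR-144 arms, miR-486a-5p and miR-486b-5p) summed to 35661 to 58147 RPM in db/db and 18648 to 41659 RPM in WT libraries. The miR-486 rows may share reads and dominate that sum, so it says little of miR-451a or miR-144. Whether the miR-486 reads came from red cells was not tested. Of the 5, 4 had positive log2 fold changes, the miR-486 rows among them, and limma called 0 (background 0.155%). miR-144-3p stood at 0.60 ± 0.87 and miR-144-5p at -0.53 ± 0.63 (limma log2 fold change, SE). miR-486a-5p stood at 0.53 ± 0.14 and miR-451a at 0.26 ± 0.27 (limma log2 fold change, SE). The miR-486 rows passed with the other tools: for miR-486a-5p the adjusted p was 0.0869 by limma, 0.0452 by edgeR and 0.0242 by DESeq2. The correlation of miR-92a-3p with miR-486a-5p was r = 0.85 (permutation p = 8.0e-05, adjusted 0.000720) and rho = 0.85 (permutation p = 0.000750, adjusted 0.00675). It was 0.78 within db/db, 0.75 within WT and 0.85 without the 2 farthest libraries. The permutations ran over all 12 libraries and both rows had higher means in db/db, so that p does not set the genotype difference aside. The marker list was also chosen with earlier results of these data known. With miR-451a r was -0.02 (permutation p = 0.948, adjusted 0.948) and rho 0.19 (permutation p = 0.558, adjusted 0.628). That relation was 0.14 within db/db, -0.89 within WT and 0.06 without the 2 farthest libraries. The endothelial markers miR-126a-3p and miR-126a-5p summed to 15588 to 25095 RPM in db/db and 18852 to 29569 RPM in WT libraries, both with negative fold changes. For miR-126a-3p r was -0.64 (permutation p = 0.0287, adjusted 0.0918) and rho -0.56 (permutation p = 0.0622, adjusted 0.177), and r was -0.32 within db/db, -0.66 within WT and -0.61 without the 2 farthest libraries. The 5 leukocyte markers summed to 2981 to 6769 RPM in db/db and 3308 to 5171 RPM in WT libraries. They had 3 log2 fold changes above 0 and 2 below, and 0 called by limma (background 0.155%). miR-150-5p, a lymphocyte miRNA, made up most of that sum. miR-223-3p, a miRNA of neutrophils and other myeloid cells, had 175 to 289 RPM in db/db and 306 to 478 RPM in WT libraries. Its log2 fold change was -0.72 (limma adjusted p = 0.109, edgeR 0.135, DESeq2 0.0368). No defining marker of these 3 lists was at 0 in all libraries. The part of blood or vessel RNA in the miR-92a-3p values was not tested, and in such bulk samples fewer cells of a type and less RNA per cell cannot be told apart.

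The miRNAs most like miR-92a-3p over the 12 libraries, among the 146 other rows averaging 100 RPM or more, were let-7d-3p (Pearson r = 0.91), miR-486a-5p (0.85), miR-486b-5p (0.85), miR-125a-5p (0.85) and miR-125b-5p (0.84). They were picked for that likeness, so no p is given here, and shares of 1 total are not independent. miR-486a-5p was also on the marker list, and its p above was computed as a marker. let-7d-3p, the passenger arm of a let-7 hairpin, averaged 2114 RPM in db/db and 1656 RPM in WT libraries, and its r was 0.94 within db/db and 0.84 within WT. The most like miR-25-3p were miR-23b-3p (0.70), miR-194-5p (0.68), miR-23a-3p (0.68), miR-181d-5p (0.58) and miR-499-5p (0.55). Without the 2 libraries farthest from the median of miR-25-3p these became 0.29, 0.53, 0.35, 0.29 and 0.57, so those of miR-23b-3p, miR-23a-3p and miR-181d-5p rested in large part on those libraries. For miR-92a-3p the same step gave 0.94, 0.85, 0.85, 0.87 and 0.83. The lists for the abundant members had 0 names in common. This says little, since each held 5 of 146 rows and the members themselves had r = -0.55.

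**Figure D4:**
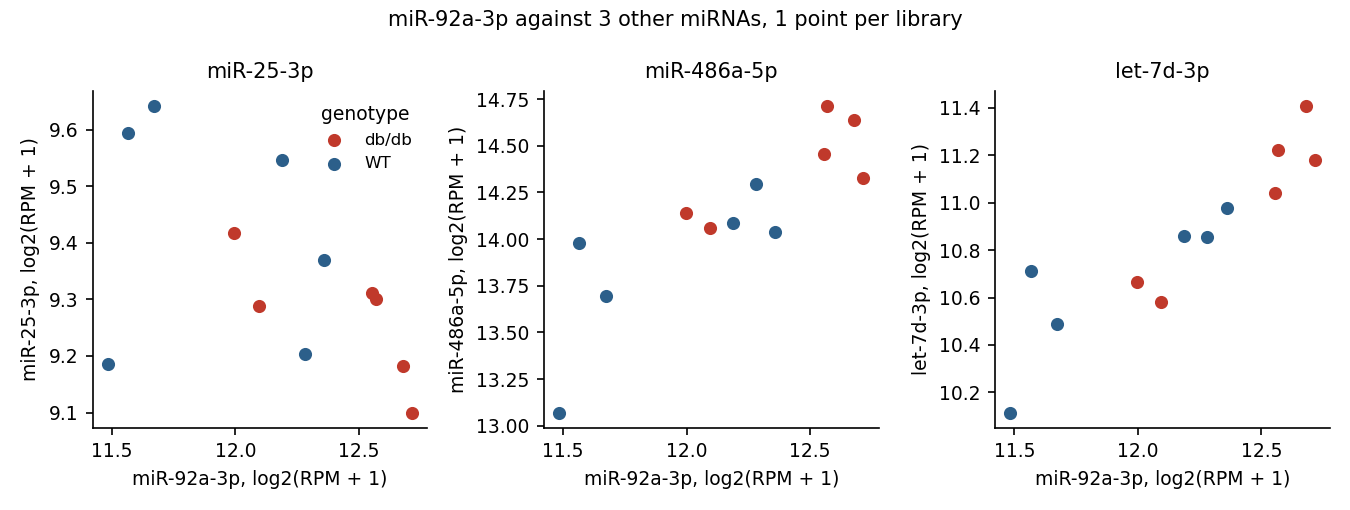
Level of miR-25-3p, miR-486a-5p and let-7d-3p (vertical axes) against that of miR-92a-3p (horizontal axis), all as log2(RPM + 1), 1 point for each of 6 db/db and 6 WT libraries. Points for let-7d-3p (r = 0.91) and miR-486a-5p (r = 0.85) climb from left to right, and those for miR-25-3p (r = -0.55) tend downward.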

How the data were processed

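Values came from 1 deposited table with a column for each of the 12 libraries. Per the labels' protocols, adapters were joined to both ends of the RNA, and cDNA synthesis, PCR and gel purification followed. The table the authors deposited is named for TPM. Every library totals 1000000, in whole multiples of 1 step shared by all rows, so the deposited values were taken as RPM with no length term. The design had assumed TPM, and its test was kept. Per the submitters' processing notes the build was GRCm39; the sources used here name no aligner or miRNA annotation. Sequences and positions are from GRCm38 tables and refer to that build alone.

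Whole reads were recovered for 100% of values (within 0.01 of a read). limma 3.58.1 (R 4.3.3) with an abundance trend was run on log2(RPM + 1), two-sided, for the 646 rows whose mean reached 1 RPM, with Benjamini-Hochberg adjustment over all of them and calls under 0.05. The recovered read counts were tested with DESeq2 1.42.0 and with the quasi-likelihood test of edgeR 4.0.16 after TMM scaling. In fits that left out libraries the filter was applied to those kept. Scripts were tested on simulated data. There limma recovered 5 of 67 rows changed 1.5-fold, 12 of 67 changed 2-fold and 23 of 66 changed 4-fold, with 0 false calls. Of the rows changed 4-fold at 100 RPM or more it recovered 16 of 16. Recovery of smaller changes at that level was not counted. Other alternatives were pseudocount, filter, scaling, trend, library weights and replicate block. Members, marker and partner lists were chosen with earlier results of these data known. Named miRNAs were the members, their passenger arms and cluster partners, the neighbours in level, the markers, and the 5 rows most correlated with each abundant member. The fibroblast, smooth muscle and neural markers (3, 2 and 2 miRNAs) had 0 called by limma (background 0.155%), with median log2 fold changes of 0.06, -0.40 and 0.20. At an unadjusted p under 0.05 by limma, both smooth muscle markers were lower in db/db, 1 fibroblast marker was higher and 1 lower, and 0 neural markers were either. miR-143-3p stood at -0.48 (limma adjusted p = 0.0869) and miR-145a-5p at -0.33 (limma adjusted p = 0.504). Python 3.11.15 drew the plots.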

Additional observations from a re-analysis of the deposited data

Results flagged for a closer look

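The level of each member in each genotype, the family sum and the ratio of miR-92a-3p to miR-25-3p gave 14 groups of 6 values, each examined for a single distant library. 1 stood out, where chance flags about 1 in 20 groups of independent, normally spread values, or 0.70 here. That rate does not hold for the flagged group, as miR-32-5p was at 0 in 4 of 6 WT libraries. The sum and the ratio also reuse the values of the members. miR-32-5p was 11.2 RPM (9 reads) in WT library 3 and at most 1.14 RPM (1 read) in the other WT libraries, a gap of 0.899 of the range, at a level near the counting limit.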

How the results depend on the processing

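No member changed direction under any alternative except miR-363-3p. For miR-92a-3p the log2 fold change ranged from 0.41 to 0.57 over 14 alternatives that kept all libraries or left out WT 4 and db/db 6 together (0.41, limma adjusted p = 0.397), and from 0.42 to 0.60 with 1 library left out. It met the threshold by DESeq2 (0.55), with a replicate block (0.51; limma adjusted p = 0.00419) and without db/db 5, WT 1 or WT 3. Under the other 21 alternatives it did not, with a limma adjusted p of up to 0.691 when the abundance trend was dropped. Same-numbered libraries correlated from -0.02 to 0.59 in their deviations from the genotype means, over 0.1 at 5 of 6 numbers but not at number 4, and 4 of 6 correlated best with their own number. No label names the numbers as pairs, so the main fit did not take them as pairs. Whether same-numbered libraries shared a batch was not tested. miR-92a-3p was higher in db/db than in WT at 6 of 6 numbers. For miR-363-3p, at -0.02, the value was 0.19 by edgeR, 0.25 by DESeq2, 0.045 with a pseudocount of 10 RPM, and -0.40 to 0.29 with 1 library left out. Against 1 call in all, limma called 0 when the pseudocount was 0.1 or 10 RPM, when the filter was dropped or set to 10 or 100 RPM, after quantile normalization, when the 10 most abundant rows were left out of the total, when the abundance trend was dropped, and when WT 4 and db/db 6 were both removed. There were 2 calls with median-of-ratios scaling, 9 (1.39% of rows) with the replicate block, and 0 to 7 with 1 library left out. edgeR called 3 and DESeq2 13. For these differences the cause was not tested. The ratio of miR-92a-3p to miR-25-3p (0.56 to 0.78, log2 difference) and the family sum (0.34 to 0.50) kept their direction with 1 library left out. Filters of at least 10 RPM removed the 3 low members. Depth limits those members: 26 to 64 reads each over all libraries.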
